A study of Mus musculus with 6 samples.

Results

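The 10 genes described here are the D-type cyclins Ccnd1, Ccnd2 and Ccnd3, their kinase partners Cdk4 and Cdk6, and the CDK inhibitors Cdkn1a, Cdkn1b, Cdkn2a, Cdkn2b and Cdkn2c. They were picked by gene symbol, all 10 were found among the 44792 genes of the deposited count table, and all 10 passed the filter on low counts that left 13323 genes to test. Bulk RNA sequencing covered 6 libraries of primary vascular smooth muscle cells from C57BL/6 mice, 3 libraries labelled Ncor1-/- and 3 labelled wild type. The Ncor1-/- cells came from mice with a smooth muscle knockout of Ncor1, which encodes nuclear receptor corepressor 1, a scaffold for histone deacetylase 3. The wild type cells came from control littermates. The series' design places 4-hydroxytamoxifen on the isolated cells to start the deletion, and its wording covers the cells of both groups. Neither the driver of the smooth muscle recombinase nor the age of the mice is stated in the labels. The design names 3 mice of each kind and also technical replicates, so every p-value refers to differences between libraries, whose spread may be technical only.

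In the G1 phase of the cell cycle, D-type cyclins bind CDK4 or CDK6, and the active kinase phosphorylates the retinoblastoma protein, which then releases E2F transcription factors that drive entry into S phase. INK4 inhibitors (Cdkn2a, Cdkn2b, Cdkn2c) bind CDK4 and CDK6 and keep the D cyclins off, while CIP/KIP inhibitors (Cdkn1a, Cdkn1b) bind cyclin and kinase together and block CDK2 most strongly. In the artery wall most smooth muscle cells are quiescent and contractile, and they enter the cycle in culture and after injury. The inhibitor p27, the product of Cdkn1b, is a known brake on their proliferation.

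Libraries held 7125538 to 9579490 counts in the Ncor1-/- group and 7231968 to 9005690 counts in the wild type group. Ncor1 itself stood at 99.1, 93.5 and 94.2 CPM (CPM are counts scaled to library size, here with TMM factors) in Ncor1-/- libraries and at 212, 223 and 229.7 CPM in wild type libraries. Smooth muscle markers were lower in the Ncor1-/- libraries for 7 of 8 genes, with a summed level of 3876 to 4078 CPM against 11216 to 11413 CPM in wild type libraries. Endothelial markers were higher for 11 of 12 genes and lower for 1, with a sum of 6619 to 6763 CPM in Ncor1-/- libraries and 1890.0 to 1972 CPM in wild type libraries. Macrophage and leukocyte markers were higher for 11 of 12 genes, with a sum of 566 to 620.0 CPM in Ncor1-/- libraries against 48.0 to 68.2 CPM in wild type libraries, and Mrc1 was at 0 in 1 wild type library. Of 5 tested markers of adventitial fibroblasts 2 were higher (Dcn and Ly6a) and 3 lower (Col14a1, Serpinf1 and Pdgfra). The sum over all 8 was 402 to 411 CPM in Ncor1-/- libraries against 183 to 187 CPM in wild type libraries. Dcn alone held most of the Ncor1-/- sum, with a mean of 320 CPM against 26.0 CPM in wild type cells. Col14a1, the most abundant of the lower markers, had 35.2 CPM in Ncor1-/- cells and 87.4 CPM in wild type cells. Dpt was at 0 in 3 Ncor1-/- and 2 wild type libraries. In bulk samples, fewer cells of a type and less RNA per cell cannot be told apart, and the part of these other cells in the results was not tested.

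All 10 genes passed the test between the groups in the edgeR fit with TMM scaling. Ccnd3, Cdk6 and Cdkn1b lost their call in some of the alternative fits. Ccnd1, Cdk4, Cdk6 and Cdkn1a were higher in Ncor1-/- cells, and Ccnd2, Ccnd3, Cdkn1b, Cdkn2a, Cdkn2b and Cdkn2c were lower. That is 4 higher and 6 lower by edgeR's quasi-likelihood test at an adjusted p threshold of 0.05, where 26.4% of all tested genes were higher, 26.2% lower and 52.6% changed in either direction. For 9 of the 10 genes, all but Cdk6, the Ncor1-/- and wild type libraries were fully separate, as they were for 57.8% of all genes tested. With TMM scaling Cdkn2a was the 1 gene of the 10 called with a difference of at least 2-fold. Of all tested genes 13.0% were called with at least that size in either direction, and 6.13% in the lower direction. Ccnd1 also passed 2-fold with library totals alone (log2 fold change 1.08) and in the FPKM fits (1.07 to 1.08), which made it 2 of the 10. How many of all genes passed 2-fold in those fits was not counted. The median log2 fold change, Ncor1-/- over wild type, was -0.25 over the 10 genes and 0.00 over all tested genes. Scaling by library totals alone moves the median of all genes by 0.13 on the log2 scale, and with it each value below. No member changed sign under that scaling.

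**Figure D1:**
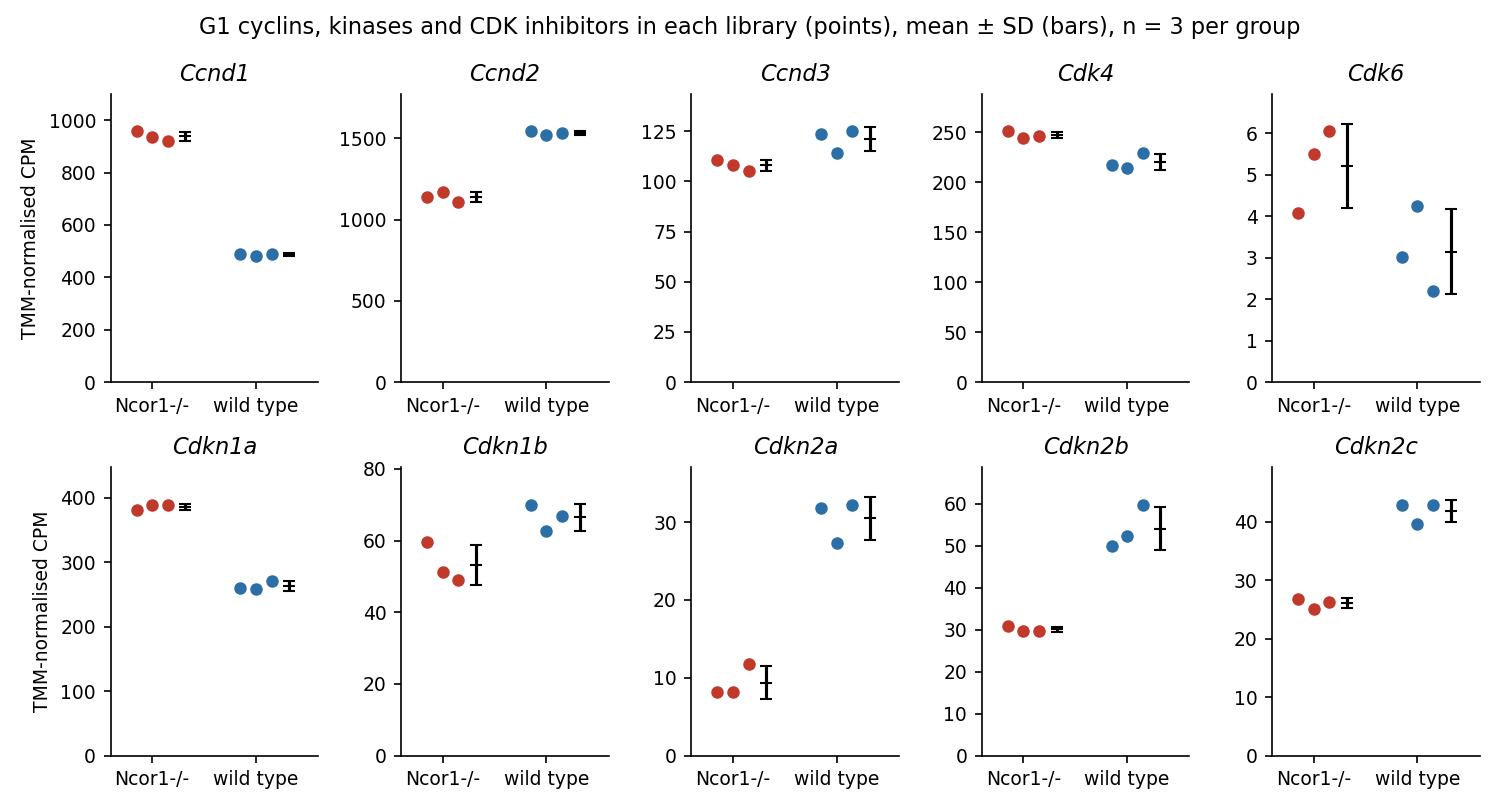
Each panel plots a gene's TMM-normalised CPM (vertical axis, from 0) in the 3 Ncor1-/- libraries (red points, left) and the 3 wild type libraries (blue points, right), with the group mean ± SD as black bars. The points of the groups are apart for every gene but Cdk6, whose levels lie between 2.19 and 6.05 CPM.

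The D cyclins moved in opposite directions. Ccnd1, which encodes cyclin D1, the D cyclin most closely tied to mitogen signals, had 958, 934 and 920.2 CPM in Ncor1-/- libraries, against 489.9, 480.5 and 489.7 CPM in wild type libraries. Every Ncor1-/- library was far above every wild type library. The means were 937 ± 19.0 CPM in Ncor1-/- cells and 487 ± 5.36 CPM in wild type cells (SD, n = 3 each), a 1.93-fold higher level (log2 fold change 0.95, SE 0.0323, adjusted p = 2.42e-35). Ccnd2, which encodes cyclin D2, had 1137, 1170.5 and 1105 CPM in Ncor1-/- libraries, against 1544, 1520.0 and 1531 CPM in wild type libraries. All 3 Ncor1-/- libraries lay below all 3 wild type libraries. The means were 1138 ± 32.5 CPM in Ncor1-/- cells and 1532 ± 11.9 CPM in wild type cells, 1.35-fold lower in Ncor1-/- cells (log2 fold change -0.43, SE 0.0304, adjusted p = 1.59e-19).

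Ccnd3, which encodes cyclin D3, was close to level. It had 111, 108 and 105 CPM in Ncor1-/- libraries and 124, 114 and 125 CPM in wild type libraries. The groups did not overlap, but the highest Ncor1-/- library, at 111 CPM, was close to the lowest wild type library, at 114 CPM. The log2 fold change was -0.16 (SE 0.0483, adjusted p = 0.00314). With library totals alone it was -0.03 (adjusted p = 0.614), and from FPKM in 3 fits it was also -0.03 (adjusted p between 0.609 and 0.648), so the fall of Ccnd3 rests on the scaling. A pseudogene named for it, Ccnd3-ps, is a row of its own in the table, and reads that match both were not separable here.

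Ratios within a library do not depend on scaling. Per library, Ccnd2 had 1.19, 1.25 and 1.20 counts for each count of Ccnd1 in Ncor1-/- cells, against 3.15, 3.16 and 3.13 in wild type cells. The log2 ratio fell to 0.28 ± 0.04 in Ncor1-/- cells, against 1.65 ± 0.01 in wild type cells (SD, n = 3 each), a difference of -1.38. By counts Ccnd2 thus stayed ahead of Ccnd1 in both groups, by less in Ncor1-/- cells. Their gene lengths in the FPKM table differ, at 3796 bases for Ccnd1 and 6268 bases for Ccnd2, and per length the order differed between the groups. As shares of the summed FPKM of the D cyclins (counts scaled to gene length and library total), Ccnd1 made up 51.9%, 50.9% and 51.7% in Ncor1-/- libraries and 29.8%, 29.9% and 29.8% in wild type libraries. Per gene length, Ccnd1 was the leading D cyclin transcript in Ncor1-/- cells and Ccnd2 in wild type cells, where Ccnd2 held 56.8%, 57.3% and 56.5%, against 37.3%, 38.6% and 37.7% in Ncor1-/- cells. The share of Ccnd3 was 10.6% ± 0.102 in Ncor1-/- cells and 13.3% ± 0.491 in wild type cells. The exact two-sided permutation test over libraries gave p = 0.1 for each of these differences, the smallest that 3 against 3 libraries allow, and 0.1125 after adjustment over the 9 ratios and shares compared.

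**Figure D2:**
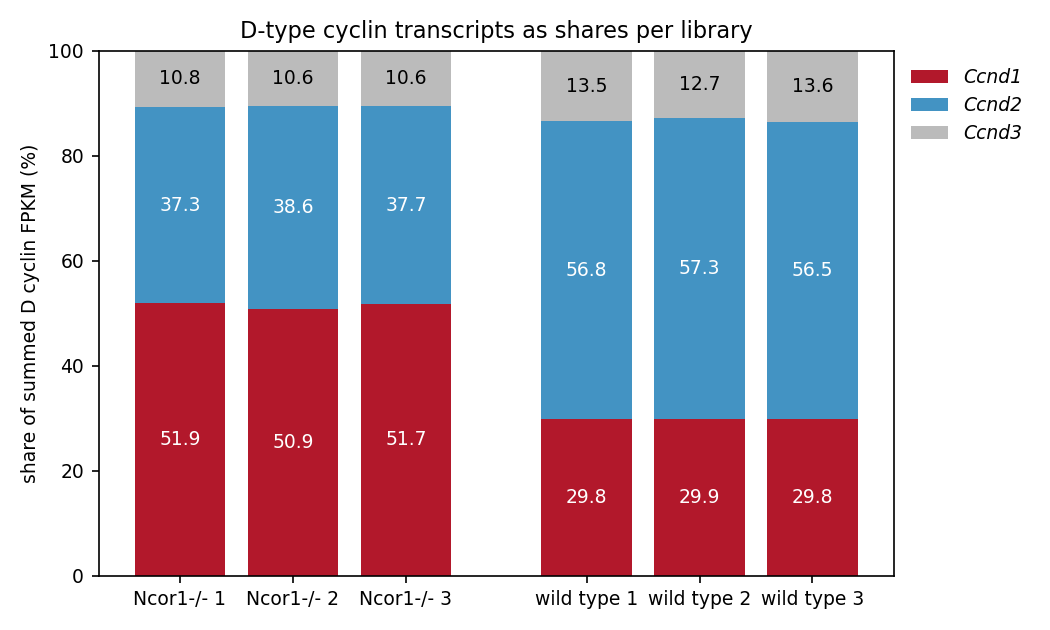
Stacked bars show, for each of the 3 Ncor1-/- libraries (left) and 3 wild type libraries (right), the percentage of the summed D cyclin FPKM that came from Ccnd1 (red), Ccnd2 (blue) and Ccnd3 (grey). Ccnd1 takes 50.9% to 51.9% of each Ncor1-/- bar and 29.8% to 29.9% of each wild type bar.

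Genes that act on D cyclin transcription went both ways, with more of them higher. Of 12 tested inducers of D cyclins 8 were higher and 4 lower, where 26.4% of all tested genes were higher and 26.2% lower. The median log2 fold change of the inducers was 0.30. With library totals alone 8 were higher and 2 lower, against 5299 and 2407 of all 13323 genes. The MYC family genes were among them: Mycn had 35.0 ± 2.84 CPM in Ncor1-/- cells and 8.98 ± 2.33 CPM in wild type cells (log2 fold change 1.98, SE 0.117, adjusted p = 1.55e-21), and Myc had 71.2 ± 3.25 CPM in Ncor1-/- cells and 44.0 ± 2.83 CPM in wild type cells (log2 fold change 0.70). Among the AP-1 genes, whose products bind the cyclin D1 promoter, Fos had 16.6 ± 0.545 CPM in Ncor1-/- cells against 7.75 ± 0.751 CPM in wild type cells (log2 fold change 1.10), and Jun had 122 ± 3.76 CPM in Ncor1-/- cells against 90.8 ± 2.46 CPM in wild type cells (0.43). For Mycn, Myc, Fos and Jun all 3 Ncor1-/- libraries exceeded all 3 wild type libraries. These genes had the smallest adjusted p of the list, which favours such separation, and 57.8% of all tested genes were separate in either direction. The lower inducers were Stat5a (log2 fold change -0.65), Tcf7l2 (-0.58), Egr1 (-0.57) and Stat3 (-0.13), named after their values were seen. A link between any inducer and Ccnd1 was not tested.

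The kinase partners were both higher, at very different levels. Cdk4 had 251, 244 and 246 CPM in Ncor1-/- libraries, against 217, 214 and 229 CPM in wild type libraries. The groups were narrowly apart, and the change was small, 1.13-fold (log2 fold change 0.17, SE 0.0385, adjusted p = 1.40e-04). Cdk6 was scarce, with 32, 41 and 61 counts in Ncor1-/- libraries and 26, 33 and 15 counts in wild type libraries, or 5.21 ± 1.02 CPM in Ncor1-/- cells and 3.15 ± 1.03 CPM in wild type cells. The first Ncor1-/- library, at 4.08 CPM, lay below the second wild type library, at 4.24 CPM. The log2 fold change was 0.73 (SE 0.225, 95% interval 0.28 to 1.18, adjusted p = 0.00502). Its call was lost in the DESeq2 test (adjusted p = 0.0844), in the fit of log2(FPKM + 1) without a filter (0.22, adjusted p = 0.0863), without the third Ncor1-/- library (0.59, adjusted p = 0.0589) and without the third wild type library (0.55, adjusted p = 0.0532). Per gene length Cdk4 had 192 ± 2.55 FPKM and Cdk6 0.474 ± 0.0943 FPKM in Ncor1-/- cells, against 156 ± 4.73 and 0.261 ± 0.0870 FPKM in wild type cells. CDK4 was therefore nearly the whole of the transcript pool for these kinases in each library. The log2 count ratio of Cdk6 to Cdk4 was -5.59 ± 0.315 in Ncor1-/- cells and -6.18 ± 0.527 in wild type cells, and the groups overlapped (exact permutation p = 0.2, adjusted 0.2).

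The Cdk4 promoter is shown for its matches to the E-box, a motif picked after the matches were seen. Cdk4 is a known MYC target, but whether the MYC family genes acted on Cdk4 in these cells was not tested. The 250 bases before its RefSeq start (build GRCm38.p6, chr10:127063285-127063534, plus strand) hold 4 copies of the E-box CACGTG, which reads alike on both strands and is in capitals.
Cdk4: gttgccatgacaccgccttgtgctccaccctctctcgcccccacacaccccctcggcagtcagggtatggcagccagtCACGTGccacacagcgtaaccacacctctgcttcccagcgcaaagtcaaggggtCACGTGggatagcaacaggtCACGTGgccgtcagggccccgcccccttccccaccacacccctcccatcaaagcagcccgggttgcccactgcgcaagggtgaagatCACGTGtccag
The copies begin 172, 118, 98 and 11 bases before the start, and that at 98 shares letters with a nuclear receptor half-site (AGGTCA), a motif found in 14% of windows. An E-box was present in 6.02% of the 32851 promoter windows of the same length in the RefSeq table. Among the 12 windows of the 8 members in that table, Cdk6 had 1 copy and the others had none. A match is a description of letters and not evidence of binding.

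**Figure D3:**
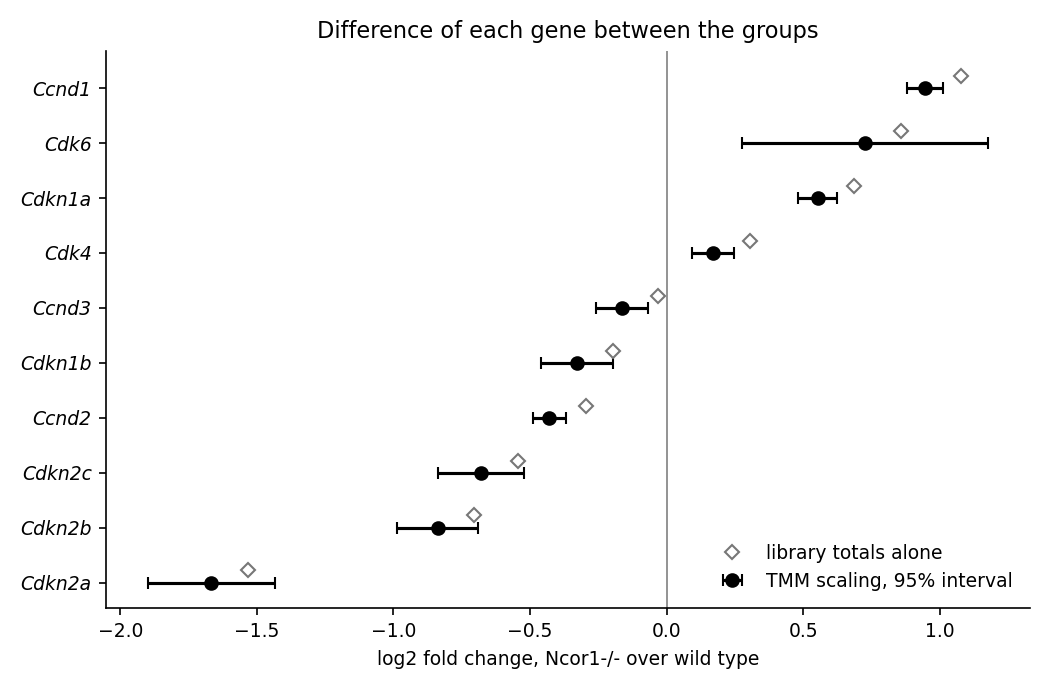
Log2 fold changes, Ncor1-/- over wild type (horizontal axis), of the 10 genes by edgeR with TMM scaling (black points with 95% intervals), and with library totals alone (open diamonds). Values run from 0.95 for Ccnd1 to -1.67 for Cdkn2a, and the diamond of Ccnd3 lies at -0.03.

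The CIP/KIP inhibitors differed from each other in direction. Cdkn1a, which encodes p21, the CDK inhibitor induced by p53, had 381, 389.7 and 389 CPM in Ncor1-/- libraries, against 261, 258 and 272 CPM in wild type libraries. Every Ncor1-/- library was above every wild type library. The means were 386 ± 4.85 CPM in Ncor1-/- cells and 264 ± 7.22 CPM in wild type cells, a 1.47-fold higher level (log2 fold change 0.55, SE 0.0360, adjusted p = 3.32e-21). Cdkn1b, which encodes p27, had 59.5, 51.3 and 49.0 CPM in Ncor1-/- libraries and 70.0, 62.6 and 66.8 CPM in wild type libraries. The first Ncor1-/- library came within a few CPM of the wild type group without overlapping it. The log2 fold change was -0.33 (SE 0.0657, adjusted p = 2.25e-05), and from FPKM the call was lost (-0.18 to -0.19, adjusted p between 0.0889 and 0.145). Within a library there were 0.156, 0.132 and 0.126 counts of Cdkn1b for each count of Cdkn1a in Ncor1-/- cells, against 0.268, 0.243 and 0.246 in wild type cells. The log2 ratio differed by -0.88 with no overlap (exact permutation p = 0.1, adjusted 0.1125).

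Most other p53 targets were higher as well. Of 19 tested targets 13 were higher, 1 was lower and 5 did not pass, where 26.4% of all tested genes were higher and 26.2% lower. The median log2 fold change of the targets was 0.35. With library totals alone 17 were higher and 1 lower, where 5299 of 13323 genes were higher. The lower target was Sesn1 (log2 fold change -0.42, adjusted p = 9.00e-04), named after its value was seen. A part of p53 in these differences was not tested. Mdm2, which encodes the ubiquitin ligase that restrains p53, had 224 ± 4.64 CPM in Ncor1-/- cells and 112 ± 7.09 CPM in wild type cells (log2 fold change 1.00, SE 0.0441, adjusted p = 1.82e-29). Pmaip1, which encodes the pro-apoptotic protein NOXA, had 40.3 ± 1.39 CPM in Ncor1-/- cells and 10.1 ± 0.531 CPM in wild type cells (1.98). Plk2 had 176 ± 1.22 CPM in Ncor1-/- cells against 99.4 ± 9.90 CPM in wild type cells (0.82), and Gadd45a had 86.5 ± 3.46 CPM in Ncor1-/- cells against 45.7 ± 2.48 CPM in wild type cells (0.92). The Ncor1-/- and wild type libraries did not overlap for these 4 genes. They were named for the smallest adjusted p of the list, which favours such separation, and 57.8% of all tested genes were separate too.

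The INK4 inhibitors all fell. Cdkn2a had 8.15, 8.19 and 11.8 CPM in Ncor1-/- libraries, from 64, 61 and 119 counts, against 31.8, 27.3 and 32.2 CPM in wild type libraries, from 274, 213 and 221 counts. The third Ncor1-/- library stood above the others of its group but well below the wild type libraries. The means were 9.38 ± 2.09 CPM in Ncor1-/- cells and 30.5 ± 2.71 CPM in wild type cells, 3.17-fold lower in Ncor1-/- cells (log2 fold change -1.67, SE 0.116, adjusted p = 2.55e-19). Without the third Ncor1-/- library the log2 fold change was -1.89. Cdkn2a encodes both p16INK4a, an inhibitor of CDK4 and CDK6, and p19ARF, which stabilises p53 by binding MDM2. The products have different first exons and share the second, and the table gives 1 count per gene, so the levels of each could not be told apart.

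Cdkn2b, which encodes p15INK4b and lies beside Cdkn2a, had 30.8, 29.7 and 29.7 CPM in Ncor1-/- libraries, against 50.1, 52.2 and 59.8 CPM in wild type libraries. The Ncor1-/- libraries were nearly equal and all below the wild type group. The log2 fold change was -0.84 (SE 0.0745, adjusted p = 2.30e-15), or 1.79-fold lower. Cdkn2c, which encodes p18INK4c, had 26.8, 25.1 and 26.3 CPM in Ncor1-/- libraries and 42.9, 39.5 and 42.9 CPM in wild type libraries, again without overlap (log2 fold change -0.68, SE 0.0786, adjusted p = 3.08e-11). The remaining INK4 gene, Cdkn2d, which encodes p19INK4d, was lower too, at 18.8 ± 0.319 CPM in Ncor1-/- cells and 25.3 ± 0.661 CPM in wild type cells (log2 fold change -0.42, SE 0.0950, adjusted p = 1.29e-04). Cdkn1c, the third CIP/KIP gene, was at 2.11 ± 0.312 CPM in Ncor1-/- cells and 2.99 ± 0.852 CPM in wild type cells and did not pass the test (log2 fold change -0.50, adjusted p = 0.124). It was named here after its value was seen.

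Cdkn2a changed more than its INK4 relatives within each library. There were 3.78, 3.62 and 2.52 counts of Cdkn2b per count of Cdkn2a in Ncor1-/- libraries, against 1.57, 1.91 and 1.86 in wild type libraries. For Cdkn2c the numbers were 3.28, 3.07 and 2.23 in Ncor1-/- libraries and 1.35, 1.45 and 1.33 in wild type libraries. The differences in log2 ratio were 0.88 and 1.04, without overlap (exact permutation p = 0.1 each, adjusted 0.1125). Together the INK4 members Cdkn2a, Cdkn2b and Cdkn2c summed to 46.4 ± 2.59 FPKM in Ncor1-/- cells and 87.7 ± 5.32 FPKM in wild type cells.

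The fall did not extend to the next gene of the chromosome. Mtap, which encodes methylthioadenosine phosphorylase and lies next to Cdkn2a in the RefSeq gene order, was higher in Ncor1-/- libraries, at 38.9, 42.0 and 38.4 CPM against 31.1, 31.5 and 30.5 CPM in wild type libraries (log2 fold change 0.35, SE 0.0765, adjusted p = 7.65e-05). Of the other protein-coding neighbours, Dmrta1 and Zfp352 had 0 counts in all 6 libraries, which allows up to 0.297 to 0.438 CPM per library by counting error alone, and Ifne had 2 counts in all. Mtap and these neighbours were chosen by position after the values of the INK4 genes were known.

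The upstream sequences of Cdkn2a and Cdkn2b are shown because these neighbouring genes fell together and Cdkn2a has 2 starts, 12.4 kb apart. Each is the 250 bases before a RefSeq start on the minus strand of build GRCm38.p6. The windows are chr4:89294620-89294869 for the upstream start of Cdkn2a, which leads to p19ARF, chr4:89282193-89282442 for its downstream start, which leads to p16INK4a, and chr4:89311033-89311282 for Cdkn2b. Capitals mark matches to the E2F motif TTTNNCGC on either strand.
Cdkn2a, upstream start: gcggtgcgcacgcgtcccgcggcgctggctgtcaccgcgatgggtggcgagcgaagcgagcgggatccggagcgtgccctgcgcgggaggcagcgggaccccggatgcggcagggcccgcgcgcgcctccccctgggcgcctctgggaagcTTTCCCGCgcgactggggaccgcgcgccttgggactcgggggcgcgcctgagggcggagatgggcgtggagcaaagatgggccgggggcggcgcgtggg
Cdkn2a, downstream start: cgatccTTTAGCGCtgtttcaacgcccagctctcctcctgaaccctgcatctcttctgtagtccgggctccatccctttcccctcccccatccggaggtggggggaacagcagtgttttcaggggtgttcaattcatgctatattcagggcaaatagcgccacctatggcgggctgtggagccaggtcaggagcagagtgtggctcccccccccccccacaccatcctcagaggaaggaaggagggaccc
Cdkn2b: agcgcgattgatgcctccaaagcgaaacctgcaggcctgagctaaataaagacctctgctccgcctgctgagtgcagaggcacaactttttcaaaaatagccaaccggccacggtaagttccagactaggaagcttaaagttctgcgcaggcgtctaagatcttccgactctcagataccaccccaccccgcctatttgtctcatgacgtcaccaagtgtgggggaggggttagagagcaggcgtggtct
Both Cdkn2a windows held 1 match, 99 and 244 bases before the start, and the Cdkn2b window held none. Among the windows of the other members, that of Cdk6, which was higher in Ncor1-/- cells, held 1 match 198 bases before the start, and those of Ccnd3, Cdk4, Cdkn1a, Cdkn1b and Cdkn2c held none. The motif was found in 4.28% of all 32851 windows. The windows also differed in composition, with 78.4% G or C and 40 CG steps before the upstream start of Cdkn2a, 60.0% and 7 before its downstream start, and 53.6% and 12 before Cdkn2b, where the median of all windows was 52.4% G or C. No match says only that these letters are not in that window.

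Regulators known to act on the Cdkn2a locus went both ways. Of 22 tested genes 6 were higher and 9 were lower, the median being -0.09 on the log2 scale. Over all tested genes 26.4% were higher and 26.2% lower, so the share of higher genes was close to that of the whole table. Library totals alone gave 9 higher and 7 lower (median 0.04), against 5299 and 2407 of all 13323 genes. The Polycomb gene Bmi1, a repressor of the locus, was lower at 60.5 ± 2.58 CPM in Ncor1-/- cells against 89.0 ± 6.49 CPM in wild type cells (log2 fold change -0.56, SE 0.0585, adjusted p = 1.17e-12). Another Polycomb repressor of the locus, Cbx7, was higher at 10.9 ± 1.43 CPM in Ncor1-/- cells against 3.96 ± 0.552 CPM in wild type cells (1.46, SE 0.173). Tbx2, a T-box repressor of Cdkn2a, was lower at 1.84 ± 0.167 CPM in Ncor1-/- cells and 5.95 ± 1.50 CPM in wild type cells (-1.67, SE 0.243). Ets1, an activator of p16INK4a in human fibroblasts, was higher at 175 ± 7.83 CPM in Ncor1-/- cells against 92.2 ± 3.99 CPM in wild type cells (0.92, SE 0.0471). Known repressors of the locus were thus found on both sides.

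Per gene length, the order of the 10 levels differed between the groups. In Ncor1-/- cells Ccnd1 came first at 259 ± 4.27 FPKM, followed by Cdkn1a at 209 ± 3.23, Cdk4 at 192 ± 2.55 and Ccnd2 at 190.0 ± 4.74 FPKM, the last pair overlapping. In wild type cells Ccnd2 came first at 233 ± 1.98 FPKM, followed by Cdk4 at 156 ± 4.73, Cdkn1a at 130.0 ± 2.69 and Ccnd1 at 122 ± 0.900 FPKM, without overlap between neighbours. Ccnd3 was the fifth in each group, at 53.4 ± 1.13 FPKM in Ncor1-/- cells and 54.5 ± 2.43 FPKM in wild type cells. Below it, Cdkn2b had 22.6 ± 0.435 FPKM in Ncor1-/- cells, and Cdkn2c at 13.2 ± 0.440, Cdkn1b at 12.1 ± 1.21 and Cdkn2a at 10.6 ± 2.42 FPKM overlapped each other in turn. In wild type cells Cdkn2b at 37.0 ± 3.29, Cdkn2a at 31.3 ± 2.63, Cdkn2c at 19.4 ± 0.797 and Cdkn1b at 13.8 ± 0.735 FPKM followed without overlap. Cdk6 was last in both. Cdkn1a alone exceeded the other 4 inhibitors together in every library of either group. FPKM is scaled by library totals, so differences between groups on this scale include the shift of 0.13.

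**Figure D4:**
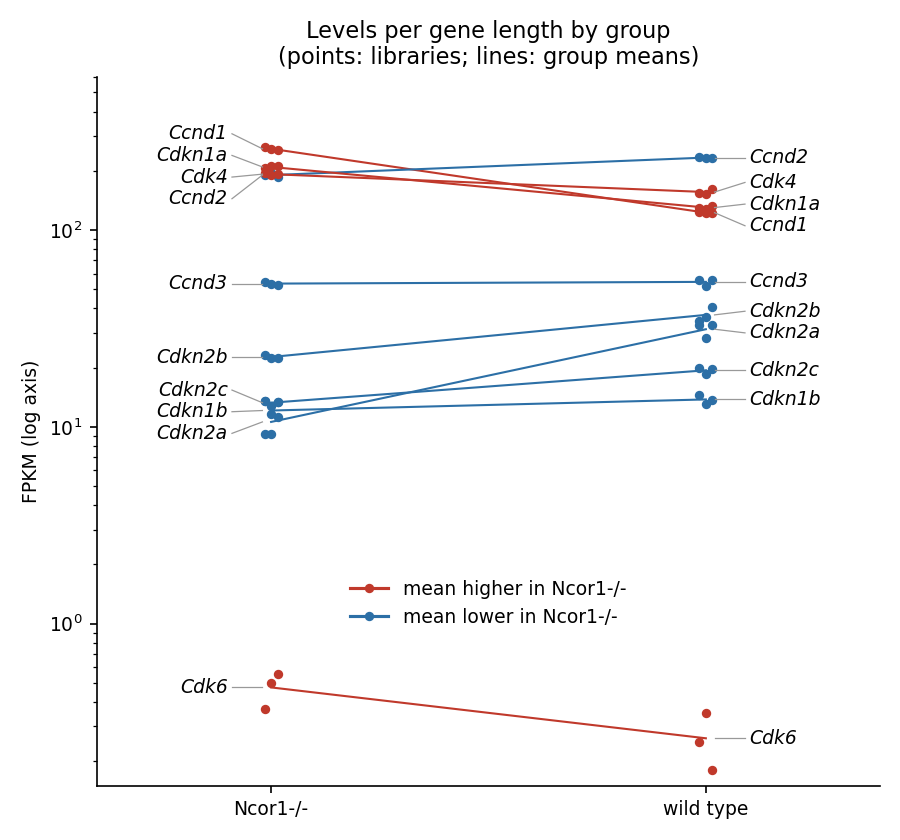
FPKM on a log axis for the 10 genes in Ncor1-/- cells (left) and wild type cells (right), with points for libraries and lines between group means, red where the mean was higher in Ncor1-/- cells and blue where it was lower. Ccnd1 is first at 259 FPKM on the left and the fourth at 122 FPKM on the right.

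Genes that act with the D cyclins at the G1 to S boundary went both ways, and how many passed the test moved with the scaling. With TMM scaling 26.4% of all tested genes were higher and 26.2% lower, and with library totals alone 5299 and 2407 of 13323. In the cyclin E and CDK2 module 1 of 5 genes was higher and 1 lower, at a median of 0.08 (3 higher and 1 lower with library totals alone). Ccna2, which encodes cyclin A2, had 98.1 ± 1.57 CPM in Ncor1-/- cells and 123 ± 9.15 CPM in wild type cells (log2 fold change -0.32, adjusted p = 1.14e-07), and Cdc25a, a phosphatase that activates CDK2, had 16.8 ± 1.56 CPM in Ncor1-/- cells and 12.0 ± 2.11 CPM in wild type cells (0.47, adjusted p = 9.07e-04). Among 15 pocket protein and E2F genes 3 were higher and 3 lower, at a median of 0.06 (7 higher and 1 lower with library totals alone). Rbl2, which encodes the pocket protein p130, was lower at 30.3 ± 0.0508 CPM in Ncor1-/- cells against 42.1 ± 1.75 CPM in wild type cells (log2 fold change -0.47, adjusted p = 2.46e-07). E2f4 (0.23) and the dimer partner gene Tfdp1 (0.13) were higher and E2f6 (-0.26) was lower by the same test. The call of E2f6 was lost with library totals alone (-0.13, adjusted p = 0.112) and in the FPKM fits (adjusted p between 0.164 and 0.230), and that of Ccna2 in 1 FPKM fit (adjusted p = 0.0665). Tfdp1 lost its call in the DESeq2 test (adjusted p = 0.0776), without the third Ncor1-/- library (0.0962) and without the second wild type library (0.114). None of these genes reached a 2-fold difference.

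Turnover and activation genes also stayed within a 2-fold difference, and their counts of calls moved with the scaling too. Among 17 genes for the turnover of cyclins and CDK inhibitors 2 were higher and 2 lower (median 0.02). Over all tested genes 26.4% were higher and 26.2% lower. Library totals alone gave 9 higher and 1 lower, against 5299 and 2407 of all 13323 genes. The higher genes were Uhmk1, a kinase that phosphorylates p27 (log2 fold change 0.39, SE 0.0760), and Skp2, the F-box protein that marks p27 for degradation (0.30, SE 0.116, adjusted p = 0.0237). Skp2 lost its call in the DESeq2 test (adjusted p = 0.152) and without the first or second Ncor1-/- library or the third wild type library (adjusted p between 0.0503 and 0.149). The lower genes were Gsk3b, a kinase that marks cyclin D1 for export and degradation (-0.20, SE 0.0472), and Fbxo31, an F-box protein that targets cyclin D1 (-0.41, SE 0.118). Other genes of the list that act on the same proteins did not pass, among them Cks1b (0.07) and Rnf123 (-0.24) for p27 and Fbxo4 (0.04), Fbxw8 (0.01) and Ambra1 (0.01) for cyclin D1, named after their values were seen. Library totals alone removed the call of Gsk3b (-0.06, adjusted p = 0.245), and leaving out the third wild type library removed that of Fbxo31 (-0.29, adjusted p = 0.0546). Of the CDK-activating kinase genes Cdk7 was lower (-0.25, adjusted p = 3.56e-04; -0.12, adjusted p = 0.0923 with library totals alone), Ccnh was higher (0.20, adjusted p = 0.0205; 0.134 in the DESeq2 test, 0.0754 without the first Ncor1-/- library and 0.137 without the third wild type library), and the remaining gene did not pass. In the FPKM fits, which also scale by library totals, the calls of Gsk3b (adjusted p between 0.400 and 0.462), Fbxo31 (0.120 to 0.218) and Cdk7 (0.200 to 0.270) were lost.

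Genes of DNA replication and of mitosis gave small changes, with opposite balance of calls under TMM scaling. With library totals alone both lists had more higher than lower genes, as had the whole table (5299 higher and 2407 lower of 13323). With TMM scaling 26.4% of all tested genes were higher and 26.2% lower. Of 20 S phase targets of E2F 6 were higher and 3 lower (median 0.10). Library totals alone turned this into 14 higher and 0 lower. Mcm3, which encodes a subunit of the replicative helicase, had 121 ± 6.59 CPM in Ncor1-/- cells and 97.5 ± 3.30 CPM in wild type cells (log2 fold change 0.31, adjusted p = 2.83e-07). Rrm2, Mcm5 and Mcm2 were higher by 0.30, 0.23 and 0.21 on the log2 scale. Of 20 genes of G2 and M phase 1 was higher and 9 lower (median -0.12). Library totals alone gave 4 higher and 2 lower (median 0.02). Top2a, which encodes topoisomerase II alpha, had 247 ± 5.04 CPM in Ncor1-/- cells and 294 ± 2.92 CPM in wild type cells (-0.25, adjusted p = 1.87e-08). The proliferation marker Mki67 had 328 ± 6.12 CPM in Ncor1-/- cells against 376 ± 8.31 CPM in wild type cells (-0.20, adjusted p = 2.05e-06; -0.07, adjusted p = 0.104 with library totals alone). Kif20a (-0.27) and Plk1 (-0.26) were lower as well, Plk1 with adjusted p = 0.0738 on library totals alone. From FPKM the calls of Mki67 (adjusted p between 0.171 and 0.178) and Plk1 (0.189 to 0.283) were lost, and that of Kif20a in 1 of 3 fits (0.0666). The counts of calls moved with the scaling, which shifts all genes alike. Relative to the median of all genes, the medians were 0.10 for S phase targets and -0.11 for G2 and M phase genes. A shift of all genes cannot alter these relative values, so their likeness under either scaling says nothing on stability. The range of log2 fold changes was narrower than that of the 10 members, from -0.27 to 0.62 for the mitotic genes and from -0.25 to 0.36 for the replication genes, against -1.67 to 0.95.

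**Figure D5:**
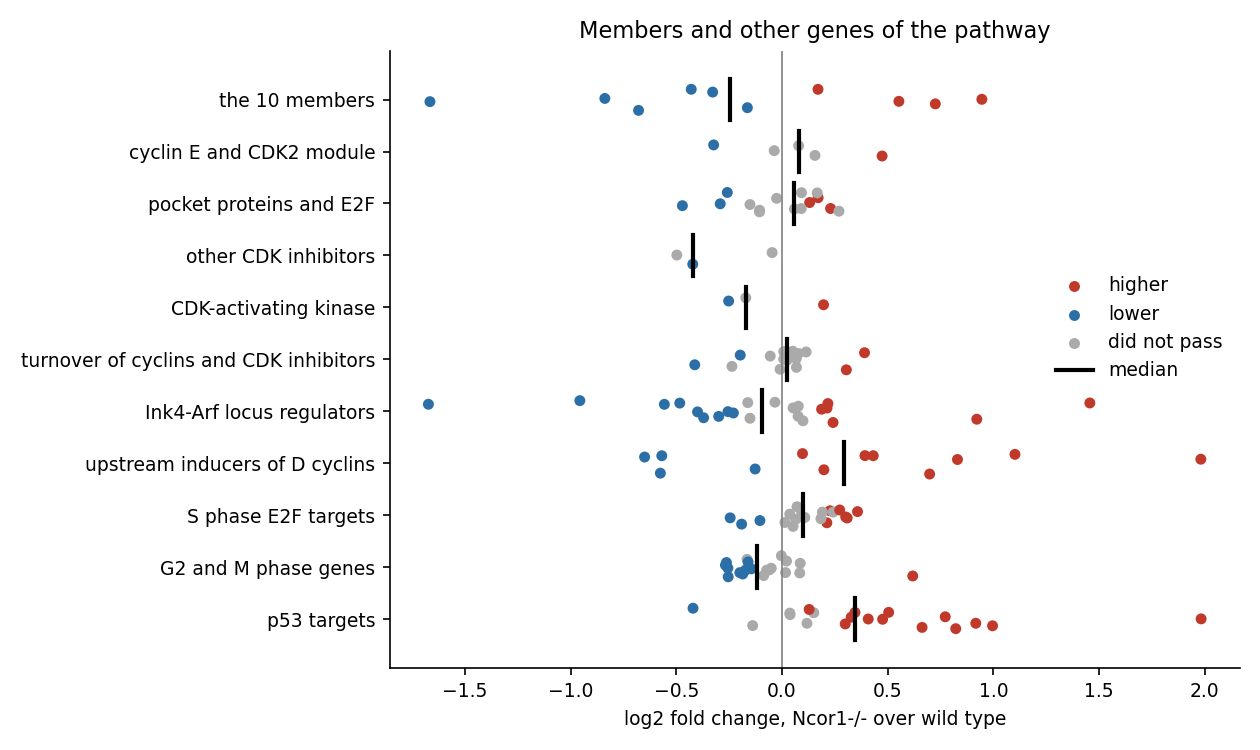
Log2 fold changes, Ncor1-/- over wild type (horizontal axis), of every tested gene of the 10 members and of 10 lists of pathway genes (rows), with red points for genes higher, blue for genes lower and grey for genes that did not pass the test, and a black bar at each median. The median is -0.25 for the members, 0.35 for p53 targets and -0.12 for G2 and M phase genes.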

How the data were processed

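Total RNA was extracted with Trizol and sequenced from Illumina libraries, per the labels' protocols, and the submitters' processing notes name HISAT2 2.0 and mm9. For the counter, the annotation and the use of strand nothing was given in the sources used here. Gene counts, as deposited, are whole numbers without normalization. The deposited FPKM table holds the same genes scaled by the authors to gene length and library total, and was used to compare levels between genes.

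Counts were tested on the whole table with edgeR 4.0.16 in R 4.3.3 (filterByExpr, TMM, robust quasi-likelihood fit, no replicate term) with Benjamini-Hochberg adjustment over 13323 genes and a threshold of 0.05. On simulated data the steps recovered 50% of 1.25-fold changes, 74% of 1.5-fold changes and 100% of 2-fold and 4-fold changes. Of the simulated calls 5.33% were false. The simulation changed 49 or 50 tested genes of each size among 13136, whereas 52.6% of the tested genes were called in the real data. The SE is the log2 fold change over the square root of F. Ratios and shares were compared by exact permutation of libraries. Members and lists were chosen with earlier results of these data known. Named list genes were the up to 4 called genes with the smallest adjusted p and any called gene with means at least 2-fold apart. Promoter sequences are RefSeq's (GRCm38.p6). They were searched on both strands for 9 motifs, of which the text describes the E2F motif TTTNNCGC, the E-box CACGTG and the nuclear receptor half-site AGGTCA, picked after the matches were seen. The others were the Sp1 box GGGCGG, the CCAAT box, the TATA box TATAAA, the AP-1 motif TGANTCA, the FOXO motif GTAAACA and the ETS motif CCGGAAGT.

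Alternatives were DESeq2 size factors and the DESeq2 1.42.0 Wald test, library totals alone, 2 other filters, limma-voom (limma 3.58.1), a fit that was not robust, limma-trend on FPKM values in log2 with a pseudocount of 1 or 0.1, each library left out, and the replicate number as a block. Reads of near-identical gene copies and overlapping genes could not be assigned. Intervals and floors for counts of 0 (3 counts) cover counting error only.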

Additional observations from a re-analysis of the deposited data

How the results depend on the processing

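Under 17 alternatives no member changed sign, and 7 of the 10 (Ccnd1, Ccnd2, Cdk4, Cdkn1a, Cdkn2a, Cdkn2b, Cdkn2c) kept their call in each. In the edgeR fit with TMM scaling 52.6% of all tested genes were called, and how many of those kept their call throughout was not counted. Members higher numbered 3 or 4 and members lower 4 to 6. The calls lost were those of Ccnd3, Cdk6 and Cdkn1b given above, and Cdk6 was not tested in the FPKM fits with a filter. The replicate number did not pair libraries (same-number correlations 0.00, 0.02 and 0.02). With it as a block 4 members were higher and 6 lower, 3509 and 3486 of all genes were called, and 2 genes of the cyclin E and CDK2 module were higher in place of 1. The 9 ratios and shares kept their direction under each alternative run for them, and their smallest possible p there was 0.1 or more, so that p says nothing on stability.

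Counts in the pathway lists moved with scaling, and so did those of the whole table. Over all tested genes, library totals alone gave 5299 higher and 2407 lower of 13323. The DESeq2 test gave 2773 higher and 2632 lower of 17464. With a library left out, 3223 to 3381 genes were higher and 3186 to 3342 lower, of 13524 to 13645 tested. With library totals alone, higher and lower genes were 3 and 1 in the cyclin E and CDK2 module, 7 and 1 for pocket proteins and E2F, 1 and 0 for the CDK-activating kinase, 9 and 1 for turnover, 8 and 2 for D cyclin inducers, 14 and 0 for S phase targets and 4 and 2 for G2 and M phase genes. In the DESeq2 test, 1 pocket protein or E2F gene and 0 CDK-activating kinase genes were higher, 1 S phase target was lower, and 0 G2 and M phase genes were higher and 4 lower. With a library left out, the counts ranged over 1 to 2 (cyclin E and CDK2, higher), 1 to 4 (pocket proteins and E2F, higher), 1 to 2 (other CDK inhibitors, lower), 0 to 1 and 1 to 2 (CDK-activating kinase, higher and lower), 1 to 2 in each direction (turnover), 1 to 3 (S phase targets, lower), 0 to 1 (G2 and M phase, higher) and 1 to 2 (p53 targets, lower). The cause was not tested. Cdk6 had the fewest counts of the 10 members, at 15 to 61 per library.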
